A study of Homo sapiens with 2 samples.

Results

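The genes described here are 10 genes of the YAP and TEAD pathway, chosen by name as members of the pathway, with earlier results of these data known, out of 16424 genes listed in the deposited expression values. They are the coactivator genes YAP1 and WWTR1, the transcription factor gene TEAD1, the kinase genes LATS1 and LATS2, and 5 genes known as targets of the pathway, which are CTGF, CYR61, ANKRD1, AMOTL2 and AXL. All 10 symbols were found, each on 1 row, and all 10 had a mean of at least 1 CPM (CAGE tags of a gene scaled to a common library size), as did 13724 of the listed genes.

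The study asked which signals M2BPGi, the glycosylated form of Mac-2 binding protein used as a serum marker of liver fibrosis, sets off in hepatocellular carcinoma cells. RNA was taken from PLC/PRF/5, a human hepatoma cell line, and cap analysis of gene expression (CAGE) sequenced tags from the 5′ ends of its capped RNAs. The non-treated cells (0 µg/ml) were kept in medium without M2BPGi for 6 h, and the M2BPGi-treated cells were given 3 µg/ml for 6 h. Each condition had 1 library, so the differences have no replicate check and the conditions were not tested against each other. The non-treated library held 24040202 tags, 22630317 of them on listed genes, and the M2BPGi-treated library held 24862942, with 23471991 on listed genes. The limit that a count of 0 allows was 0.125 CPM for the former and 0.121 CPM for the latter.

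YAP, encoded by YAP1, and TAZ, encoded by WWTR1, have no DNA-binding domain of their own and turn genes on by binding TEAD transcription factors. The LATS kinases of the Hippo pathway phosphorylate both proteins, which keeps them out of the nucleus. In the liver, this pathway limits organ size, and high YAP activity is known from hepatocellular carcinoma.

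The cell line was first checked against its markers. All 13 hepatocyte and hepatoma markers were listed, and their summed level was 4500 CPM without and 4147 CPM with M2BPGi. KRT18, a keratin of simple epithelia, was the most abundant, at 1250 and 1592 CPM, but KRT18 and KRT8 have near-identical copies and overlap each other on opposite strands, which leaves their tag numbers uncertain. AFP, the fetal serum protein of hepatoma cells, was at 695 and 566 CPM, and ALB, which encodes albumin, was at only 8.82 and 7.04 CPM. FGB, a fibrinogen chain gene, was at 950 and 623 CPM, and SERPINA1, which encodes alpha-1 antitrypsin, at 671 and 455 CPM. Without KRT8 and KRT18, the sum of the other 11 markers was 2415 CPM in the non-treated library and 1744 CPM in the M2BPGi-treated library, a sum added after the values were seen. With M2BPGi, 5 of the 13 markers were higher and 8 lower, beside 57.0% lower among all genes. The median log2 ratio of the markers, with over without M2BPGi, was -0.29. The 95% counting interval of 8 lay below 0, beside 31.5% of all genes, and that of KRT18, FOXA2 and HNF4A above 0 (3 markers, beside 22.8%). Once the ratios of all genes were centred on 0 by rescaling the libraries, KRT8 turned higher, and 5 intervals lay below 0, beside 25.6%, and 3 above 0, beside 28.2%. FGB (-0.61) and TF (-0.60), the transferrin gene, were lower by 1.5-fold or more, beside 4.04% of all genes, but both were at -0.55 and short of 1.5-fold after the rescaling, and TF was at -0.36 with 5 CPM added. TF also overlaps listed genes on the same strand, so the assignment of its tags is uncertain. The part of this marker difference in the values below was not tested, and fewer cells of a kind and less RNA per cell cannot be told apart in such libraries. Of 8 stellate cell or fibroblast markers, 2 were listed, with COL3A1 as the most abundant and a sum of 5.20 and 4.18 CPM. Of 7 leukocyte markers, 2 were listed, with CD68, which overlaps listed genes and is uncertain in level, at 21.2 and 20.5 CPM and PTPRC, which defines leukocytes, at 0 in both libraries. Of 5 endothelial markers, 0 were listed.

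The promoter sequences of the genes are shown first, because the motif that TEAD proteins bind is what links the coactivators to the target genes. The motif GGAATG was searched on both strands (CATTCC on the other) in the 300 bases from 250 before to 50 after each start in the RefSeq promoter table (GRCh38.p14). No other motif was searched. Of 35116 promoters of that length, 14.0% held it, 1.37% held it at 2 or more places and 0.128% at 3 or more. An entry was found for 8 of the 10 genes, with 12 promoters in all, and TEAD1 and CYR61 had none. Of these 8 genes, 6 had the motif in a promoter, beside 16.7% of the 27305 genes in the table, and of their 12 promoters, 6 had it. In the longer list of YAP and TAZ target genes described below, 9 of the 17 genes with an entry had the motif. CTGF, listed in RefSeq as CCN2, had it at 3 places (45 of all promoters had it at 3 or more), and ANKRD1 had it at 2. YAP1 itself had it once upstream of its start and LATS2 once just after its start. The motif lay on the reverse strand in AMOTL2 (at 1 of its 2 starts) and in AXL (at 1 of 2 starts). WWTR1 and LATS1 had it at neither of their 2 starts. A match of the letters is a description of the sequence and says nothing of binding in these cells.

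The following sequences are given 5′ to 3′ on the strand of the gene, with the motif in capitals. CTGF and ANKRD1 are shown for their several motifs, YAP1 as the coactivator gene that has one, LATS2 and AMOTL2 for the motif alone, and LATS1 as the gene with the highest ratio below. The long runs end where the first exon of the gene begins in GENCODE v29 or at the RefSeq start. The ANKRD1, LATS2 and AMOTL2 sites that lie beyond that point are shown in 30 bases.
CTGF, minus strand, chr6:131951374-131951622: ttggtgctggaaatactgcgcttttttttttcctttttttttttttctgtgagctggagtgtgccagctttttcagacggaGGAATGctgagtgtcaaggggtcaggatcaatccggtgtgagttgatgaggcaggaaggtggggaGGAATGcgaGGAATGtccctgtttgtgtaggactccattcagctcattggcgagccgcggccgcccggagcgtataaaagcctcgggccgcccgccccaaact
ANKRD1, minus strand, chr10:90921277-90921337: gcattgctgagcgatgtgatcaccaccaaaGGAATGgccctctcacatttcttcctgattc
ANKRD1, minus strand, chr10:90921198-90921227: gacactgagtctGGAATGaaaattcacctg
YAP1, plus strand, chr11:102110197-102110446: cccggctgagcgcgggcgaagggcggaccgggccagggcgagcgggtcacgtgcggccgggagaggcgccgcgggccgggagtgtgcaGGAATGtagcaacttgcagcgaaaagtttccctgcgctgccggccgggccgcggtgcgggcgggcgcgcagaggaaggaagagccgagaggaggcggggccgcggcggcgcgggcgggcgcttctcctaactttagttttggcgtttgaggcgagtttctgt
LATS2, minus strand, chr13:21061560-21061589: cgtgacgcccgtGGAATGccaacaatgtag
AMOTL2, minus strand, chr3:134374499-134374528: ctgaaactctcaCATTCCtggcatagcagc
LATS1, minus strand, chr6:149718257-149718351: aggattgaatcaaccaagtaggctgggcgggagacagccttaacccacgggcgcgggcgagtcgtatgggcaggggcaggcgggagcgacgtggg

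Counted from the RefSeq start, the CTGF motifs began at positions -169, -104 and -95, all in the forward orientation. The second of them ended at position -99, so this pair nearly touched. The ANKRD1 motifs began at positions -220 and -128, the second inside the first exon of GENCODE. The YAP1 motif began at position -162, and that of LATS2 at position 10 after the start. The reverse motif of AMOTL2 lay at positions -69 to -64 and that of AXL at -212 to -207.

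**Figure D1:**
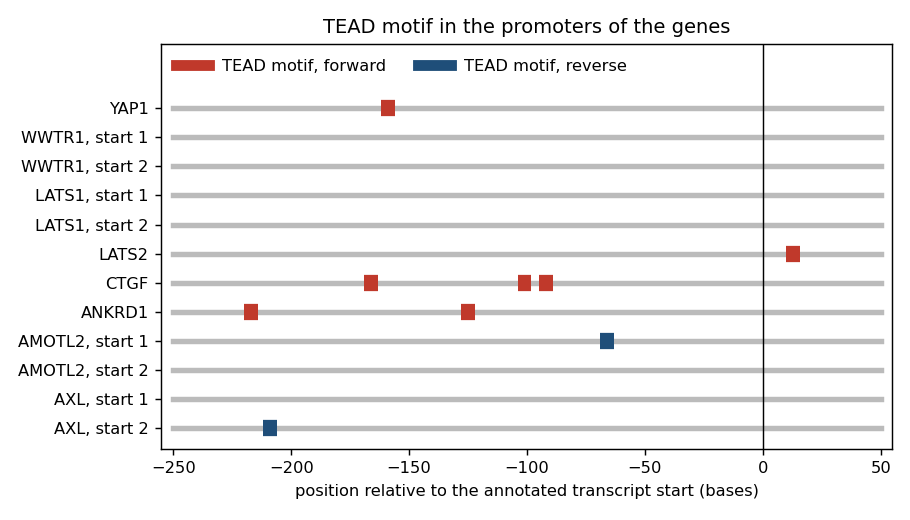
Positions of the TEAD motif in the 12 promoters of the 8 genes with a RefSeq entry. The horizontal axis is the distance from the annotated transcript start in bases, each grey line is 1 promoter from 250 bases before to 50 after the start, and the blocks are motifs, red in the forward and blue in the reverse orientation. CTGF has 3 blocks and ANKRD1 has 2, and WWTR1 and LATS1 have 0.

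The levels ranged from 12.4 to 73.8 CPM in non-treated cells. Each tag marks the start of 1 transcript, so levels were compared between genes without a correction for length. The coactivator gene WWTR1 was the highest in both libraries, followed by TEAD1, LATS2 and YAP1, and the target gene AXL was the lowest. The target genes and LATS1 lay below these 4 genes in both libraries. In non-treated cells, the 95% Poisson intervals of neighbours in this order overlapped for TEAD1 and LATS2, for AMOTL2 and ANKRD1, for ANKRD1 and CYR61, and for LATS1 and AXL. In M2BPGi-treated cells, the intervals of TEAD1, LATS2 and YAP1 overlapped from neighbour to neighbour, as did those of ANKRD1, CTGF, CYR61, LATS1 and AMOTL2. LATS1 was at rank 9 of the 10 without M2BPGi and at rank 8 with it, where its interval no longer overlapped that of AXL. Such intervals, and those of the ratios below, cover counting error only.

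**Figure D2:**
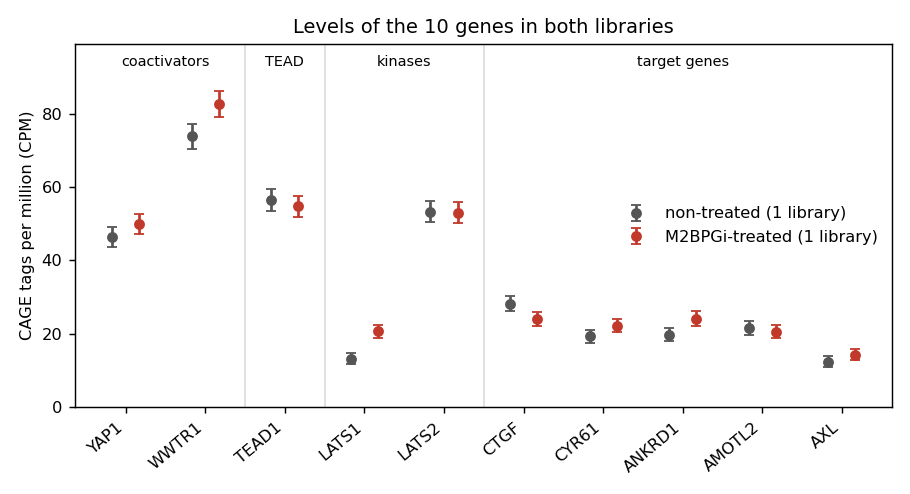
Levels of the 10 genes in both libraries. The vertical axis is CPM from 0, points are the values of the non-treated library (grey) and the M2BPGi-treated library (red), and bars are 95% Poisson intervals of the tag number. The bars of LATS1 are apart, at 13.1 and 20.6 CPM, as are those of WWTR1, ANKRD1 and CTGF, the last lower with M2BPGi. Those of YAP1, TEAD1, LATS2, CYR61, AMOTL2 and AXL overlap.

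The M2BPGi-treated library was compared with the non-treated library by the log2 ratio of the CPM after adding 1 CPM to each, which understates the ratio of low genes. Intervals in brackets are exact 95% intervals for the log2 ratio of the tags without the added value. LATS1 was the 1 gene of the 10 that was higher by 1.5-fold or more with M2BPGi, beside 1.6% of all 13724 genes. This call was lost with 5 CPM added in place of 1 CPM, where the log2 ratio of LATS1 was 0.50 and 0 of the 10 genes passed. Of the 10, 0 were lower by 1.5-fold or more, beside 4.04% of all genes. The intervals of WWTR1, LATS1, CYR61 and ANKRD1 lay above 0, which is 4 of the 10 genes beside 22.8% of all genes. CTGF had an interval below 0, which is 1 of the 10 beside 31.5% of all genes. The other 5 intervals held 0. After the rescaling, the intervals of YAP1 and AXL also lay above 0, which makes 6 of the 10 beside 28.2% of all genes, and 1 lay below 0 beside 25.6%. The median log2 ratio of the 10 genes was 0.13, beside -0.05 for all genes. Of the 10, 6 were higher and 4 lower, beside 57.0% lower among all genes. After the rescaling, 8 were higher and 2 lower, since TEAD1 and LATS2 changed sign. Of all genes past 1.5-fold, 28.3% were higher, and 41.1% after the rescaling.

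Both coactivator genes had somewhat higher values in M2BPGi-treated cells. YAP1 (ENSG00000137693, chromosome 11 from 102110461 to 102233423 in GENCODE v29, GRCh38) had 46.4 CPM without M2BPGi and 49.9 CPM with it, from 1115 and 1240 tags. Its log2 ratio was 0.10 (interval -0.01 to 0.22), and 0.16 after the rescaling (interval 0.04 to 0.28), so whether the interval of YAP1 held 0 depended on the scaling. Its start has a near-identical copy in the pseudogene YAP1P1 (95.9% identity over 266 nt), which is not among the listed genes, so the assignment of its tags is uncertain. WWTR1 (ENSG00000018408, chromosome 3 from 149517235 to 149736714) had 73.8 and 82.7 CPM, from 1774 and 2055 tags. This gave a log2 ratio of 0.16 (interval 0.07 to 0.26), at percentile 77.7 of the ratios of all genes. WWTR1 was thus higher by more than counting error, and 3059 genes had a higher ratio. YAP1 made up 38.6% of the tags of the coactivator pair in non-treated cells (95% Clopper-Pearson interval 36.8 to 40.4) and 37.6% in M2BPGi-treated cells (36.0 to 39.3). The balance between YAP1 and WWTR1 therefore did not differ beyond counting error, and their summed level was 120.2 and 132.5 CPM.

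TEAD1, the DNA-binding partner, was close to the same level in both libraries. TEAD1 (ENSG00000187079, chromosome 11 from 12674591 to 12944483) had 56.4 CPM without M2BPGi and 54.7 CPM with it, from 1355 and 1360 tags. Its log2 ratio was -0.04 (interval -0.15 to 0.07), and 0.01 after the rescaling. The paralogs of TEAD1 were lower in level. TEAD4 had 14.1 and 18.7 CPM, with a log2 ratio of 0.39 (interval 0.21 to 0.62). TEAD3 had 9.44 and 10.8 CPM, with a log2 ratio of 0.17 (interval -0.07 to 0.45), and TEAD2 had 11.02 and 11.06 CPM, with a ratio of 0.00 (interval -0.24 to 0.25). TEAD4 was thus the TEAD gene whose interval did not hold 0. TEAD1 made up 62.0% of the TEAD tags in non-treated cells (interval 59.9 to 64.0) and 57.4% in M2BPGi-treated cells (55.4 to 59.4). The share of TEAD4 was 15.5% (14.0 to 17.1) and 19.7% (18.1 to 21.3). Neither pair of intervals overlapped, so TEAD1 held a smaller and TEAD4 a larger share in the M2BPGi-treated library, and TEAD1 remained the most abundant TEAD gene.

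The LATS kinase genes differed from each other. LATS1 (ENSG00000131023, chromosome 6 from 149658153 to 149718256) had 13.1 CPM without M2BPGi and 20.6 CPM with it, from 315 and 513 tags. Its CPM was 1.57-fold higher, with a log2 ratio of 0.62 (interval 0.45 to 0.86). This was percentile 98.8 of the ratios of all genes, and 168 genes had a higher ratio. Among the 6086 genes with a mean level between those of AXL and WWTR1, at 13.4 to 78.2 CPM, the central 95% of the log2 ratios lay between -0.58 and 0.47, and 1.27% of these genes were at least 1.5-fold higher. LATS1 thus lay above the central range of this band, near whose lower end its own mean level of 16.9 CPM was. The lower end of its interval, 0.45, was below the log2 value of 1.5-fold, 0.58, so a smaller ratio was within counting error. LATS2 (ENSG00000150457, chromosome 13 from 20973032 to 21061547) had 53.3 and 52.9 CPM, from 1281 and 1316 tags. The log2 ratio of LATS2 was -0.01 (interval -0.12 to 0.10), and 0.05 after the rescaling. LATS2 is both a kinase of the pathway and a known target of YAP. LATS1 made up 19.7% of the LATS tags in non-treated cells (interval 17.8 to 21.8) and 28.0% in M2BPGi-treated cells (26.0 to 30.2), and these intervals did not overlap. LATS2 had 4.07 tags for each LATS1 tag in non-treated cells and 2.57 in M2BPGi-treated cells. LATS2 was thus the more abundant kinase gene in both libraries.

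**Figure D3:**
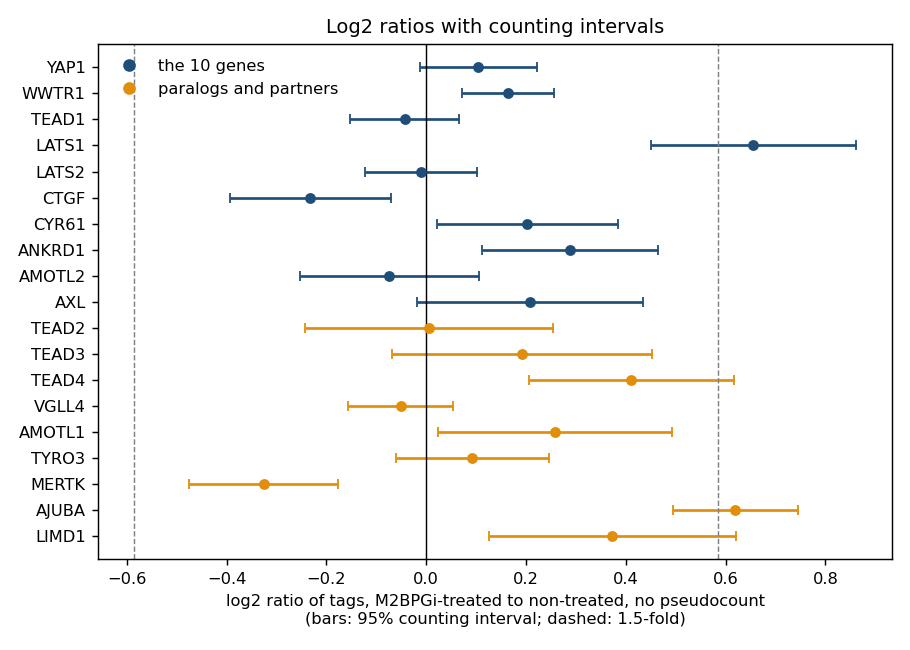
Log2 ratios of tags, M2BPGi-treated to non-treated cells, with 95% counting intervals. The horizontal axis is the log2 ratio without an added value, blue points are the 10 genes, orange points are paralogs and partners, the solid line is 0 and the dashed lines are 1.5-fold. The partners are VGLL4 and, from the Hippo list described below, AJUBA and LIMD1, which have the highest ratios of that list outside the 10 genes. The lowest of that list, FAT1, TAOK2 and STK38L, are not drawn. LATS1 and AJUBA lie past 1.5-fold, and the intervals of TEAD1, LATS2 and VGLL4, whose ratios change sign after the rescaling, hold 0.

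The target genes did not share a direction. CTGF (ENSG00000118523, chromosome 6 from 131948176 to 131951373), which encodes a matricellular protein of fibrosis and is a standard readout of YAP activity, had 28.2 CPM without M2BPGi and 24.0 CPM with it, from 678 and 597 tags. Its log2 ratio was -0.22 (interval -0.39 to -0.07). CYR61 (ENSG00000142871, chromosome 1 from 85580761 to 85583962), which encodes a matricellular protein of the same family, had 19.3 and 22.2 CPM, from 463 and 551 tags. This gave a log2 ratio of 0.19 (interval 0.02 to 0.38). The intervals of CTGF and CYR61 thus lay on opposite sides of 0. ANKRD1 (ENSG00000148677, chromosome 10 from 90912096 to 90921276), which encodes an ankyrin repeat protein of the nucleus, had 19.8 and 24.1 CPM, from 475 and 600 tags. ANKRD1 had a log2 ratio of 0.28 (interval 0.11 to 0.47), the highest of the 5 target genes. CTGF and ANKRD1, with 3 and 2 motifs in the promoters shown above, therefore had ratios of opposite sign. AMOTL2 (ENSG00000114019, chromosome 3 from 134355874 to 134375479), whose angiomotin-like product binds and restrains YAP, had 21.6 and 20.5 CPM, from 518 and 509 tags. Its log2 ratio was -0.07 (interval -0.25 to 0.11), so no difference was detectable at this depth. AXL (ENSG00000167601, chromosome 19 from 41219203 to 41261766), a receptor tyrosine kinase gene, had 12.4 and 14.3 CPM, from 298 and 356 tags. The ratio of AXL was 0.19 (interval -0.02 to 0.43). AXL had the same log2 ratio as CYR61 to 2 decimals, but fewer tags, and its interval held 0, but not after the rescaling (0.04 to 0.49). In all, CYR61, ANKRD1 and AXL were higher and CTGF and AMOTL2 lower, and the summed level of the 5 target genes was 101.2 and 105.1 CPM.

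The listed paralogs of these target genes also went both ways. AMOTL1, the paralog of AMOTL2, had 11.4 and 13.7 CPM, with a log2 ratio of 0.24 (interval 0.02 to 0.49). For AXL, the paralog MERTK had 33.8 and 27.0 CPM, with a ratio of -0.32 (interval -0.48 to -0.18). TYRO3, the other paralog of AXL, had 27.5 and 29.3 CPM, with a ratio of 0.09 (interval -0.06 to 0.25), and has a near-identical copy. AXL was thus the lowest in level of the 3 related receptor genes. AMOT, ANKRD2 and the paralogs CCN3 to CCN6 of CTGF and CYR61 were not analysed here.

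**Figure D4:**
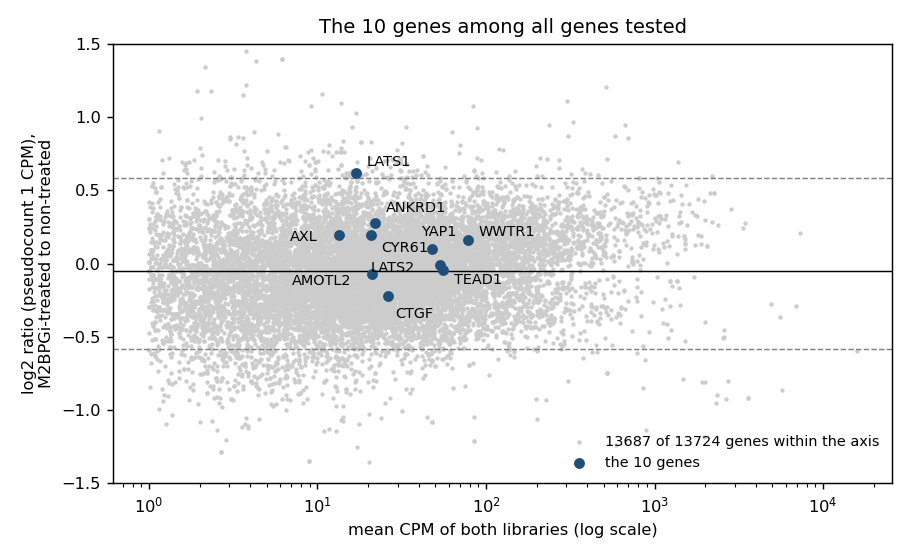
The 10 genes among all genes with a mean of at least 1 CPM. The horizontal axis is the mean CPM of both libraries on a log scale, the vertical axis is the log2 ratio with 1 CPM added, grey points are all genes within the axis, blue points are the 10 genes, the solid line is the median of all genes (-0.05) and the dashed lines are 1.5-fold. LATS1 is the blue point past the upper line, and the other 9 lie between -0.22 and 0.28, with TEAD1 and LATS2 changing sign after the rescaling.

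The 10 genes were then set beside the rest of the pathway in 4 lists. Of 33 Hippo kinase cascade and scaffold genes, which include LATS1, LATS2 and AMOTL2, 30 passed the filter. Their median log2 ratio was -0.04, with 11 higher and 19 lower, beside 57.0% lower among all genes. After the rescaling, the median was 0.01, with 16 higher and 14 lower. LATS1 had the highest ratio of the list. It was followed by AJUBA, which encodes a LIM protein that binds LATS kinases, at 35.7 and 54.8 CPM with a log2 ratio of 0.61 (interval 0.50 to 0.74). AJUBA overlaps a listed gene on the same strand, so the assignment of its tags is uncertain. LATS1 and AJUBA were the 2 of these 30 genes at least 1.5-fold higher, beside 1.6% of all genes, and 0 were at least 1.5-fold lower, beside 4.04%. With 5 CPM added, the log2 ratio of AJUBA was 0.56, and 0 of the 30 genes passed. LIMD1, a gene of the same LIM protein family, had 9.94 and 12.9 CPM and a log2 ratio of 0.34 (interval 0.13 to 0.62). The lowest ratios among the list genes with a mean of at least 10 CPM were those of FAT1 (-0.49), TAOK2 (-0.38) and STK38L (-0.31). FAT1, which encodes a giant cadherin, had 32.4 and 22.7 CPM. TAOK2, a kinase gene upstream of the LATS kinases, had 56.7 and 43.3 CPM, and STK38L, a kinase gene related to LATS1 and LATS2, had 33.4 and 26.9 CPM. Of the 30 genes, 5 had an interval above 0, beside 22.8% of all genes, and 7 an interval below 0, beside 31.5%. After the rescaling, these counts were 7, beside 28.2%, and 7, beside 25.6%. Of the 30, 10 overlap a listed gene or have a near-identical copy. Among the other 20, before the rescaling, 4 had an interval above 0 and 6 below. The high ratio of LATS1 was therefore not shared by the list as a whole.

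The STRIPAK genes encode the phosphatase complex that opposes the Hippo kinases upstream of LATS1 and LATS2. All 14 passed the filter, with a median log2 ratio of 0.08, 9 higher and 5 lower, beside 57.0% lower among all genes. After the rescaling, the median was 0.13, with 11 higher and 3 lower. Of the 14 STRIPAK genes, 7 had an interval above 0, beside 22.8% of all genes, and 1 below 0, beside 31.5%. After the rescaling, these counts were 7, beside 28.2%, and 0, beside 25.6%. MOB4, 1 of the 7 above 0, and 6 others of the 14 overlap a listed gene or have a near-identical copy, and without these 7 genes 1 of the other 7 had an interval above 0 and 0 below. FGFR1OP2 had the highest ratio, with 41.2 and 50.2 CPM and a log2 ratio of 0.28 (interval 0.17 to 0.41). PPP2CB (134.8 and 157.4 CPM), a catalytic subunit gene with a near-identical copy, and STRN3 (50.3 and 58.8 CPM), a striatin gene, both had a ratio of 0.22. The lowest ratios among those with a mean of at least 10 CPM were -0.10 for SLMAP, -0.08 for CTTNBP2NL and -0.02 for PPP2R1A, the last of which was 0.04 after the rescaling. Of the 14, 0 were past 1.5-fold in either direction, beside 1.6% higher and 4.04% lower among all genes.

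Of 8 TEAD and VGLL genes, 5 passed the filter. These were TEAD1, its 3 paralogs and VGLL4, whose product competes with YAP for TEAD proteins. VGLL4 had 60.2 and 58.1 CPM, with a log2 ratio of -0.05 (interval -0.16 to 0.05), and 0.01 after the rescaling. VGLL4 was thus at about the level of TEAD1 in both libraries, and neither showed a difference beyond counting error. The median of the list was 0.00, with 3 higher and 2 lower, beside 57.0% lower among all genes. After the rescaling, the median was 0.06, with 5 higher and 0 lower.

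The YAP and TAZ target list held the 5 target genes above, LATS2 and 16 others. Of its 22 genes, 20 were listed and 17 passed the filter, with a median log2 ratio of -0.22 beside -0.05 for all genes, 3 higher and 14 lower, and after the rescaling 6 higher and 11 lower with a median of -0.16. The median of this list was -0.12 without the filter on low values, and -0.14 both with a mean of at least 10 CPM and with 5 CPM added. The 3 higher genes were CYR61, ANKRD1 and AXL, all among the 10. Of the 11 other list genes that passed the filter, 0 were higher and 11 lower, with a median of -0.25, beside 57.0% lower among all genes, and 2 were higher and 9 lower after the rescaling. Their intervals lay below 0 for 7 of the 11, beside 31.5% of all genes, and for 5 after the rescaling, beside 25.6%. Over all 17 list genes, 2 intervals lay above 0, beside 22.8% of all genes, and 8 below, beside 31.5%. After the rescaling, these counts were 3, beside 28.2%, and 6, beside 25.6%. GADD45B, a stress response gene, had the lowest ratio, with 32.8 and 23.8 CPM and a log2 ratio of -0.45 (interval -0.62 to -0.31). ASAP1, an ARF GTPase-activating protein gene, had 17.4 and 13.4 CPM and a ratio of -0.35 (interval -0.59 to -0.17). CRIM1, a transmembrane protein gene, had 74.2 and 58.0 CPM and a ratio of -0.35 (interval -0.46 to -0.25). The intervals of GADD45B, ASAP1 and CRIM1 thus all lay below 0. The highest among those with a mean of at least 10 CPM were NUAK2 (-0.05, and 0.00 after the rescaling), NT5E (-0.14) and DOCK5 (-0.22). CTGF, at -0.22, was thus near the median of the list, and CYR61, ANKRD1 and AXL lay above all 11 other genes. Of the 17, 0 were past 1.5-fold in either direction, beside 1.6% higher and 4.04% lower among all genes.

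**Figure D5:**
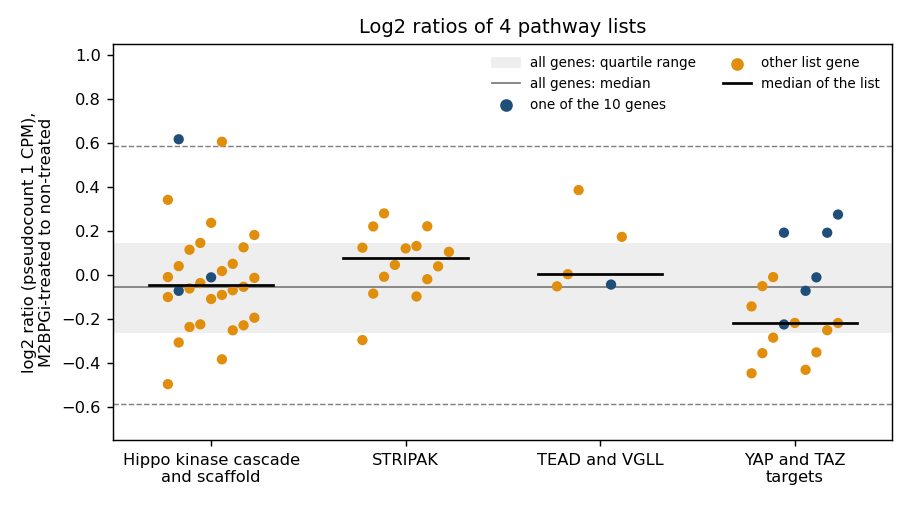
Log2 ratios of the genes of the 4 lists with a mean of at least 1 CPM. The vertical axis is the log2 ratio with 1 CPM added, blue points are among the 10 genes, orange points are other list genes, black bars are list medians, the grey band is the quartile range of all genes and the dashed lines are 1.5-fold. The list medians are -0.04, 0.08, 0.00 and -0.22 from left to right, and the first is 0.01 after the rescaling.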

How the data were processed

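CAGE tags were measured in 1 library of non-treated and 1 library of M2BPGi-treated PLC/PRF/5 cells. Ribosomal tags and those with unread bases were removed before mapping, and the authors gave 1 value per gene and library in CPM, with 2 decimals. The submitters' processing notes name BWA, HISAT2 and the human build hg19, the methods name a mouse genome, and the gene identifiers are human. The rule that gave a tag to a gene, the use of strand and the handling of tags with several matches are not given in the sources used here.

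The steps between low CPM values gave the tag numbers, and 100% of the non-zero values lay within the rounding of a whole tag number. They were used for Clopper-Pearson and Poisson intervals of counting error only. A planned exact binomial test of the tags across all genes was not run, because the rounding of the CPM was coarser than the tolerance set for whole tag numbers. The intervals rest on the same tag numbers and share this limit. They were computed gene by gene, so counts of intervals above or below 0 carry no correction for the number of genes. Log2 ratios used a pseudocount of 1 CPM and genes with a mean of at least 1 CPM. The 10 genes and the 4 lists were chosen with earlier results of these data known. Besides the 10, the text names their paralogs and, from each list, the 3 highest and 3 lowest genes with a mean of at least 10 CPM. MOB4 is named outside this rule. Markers were named after their values were known. MOB4, of the STRIPAK list, is on 2 rows, of which the one paired with the symbol in the gene name table was used (46.1 and 50.4 CPM, against 1949 and 2120 CPM). Positions are from GENCODE v29 (GRCh38), not the build of the mapping. A near-identical copy is another gene whose transcript matches the first 500 nt with 95% identity or more along 100 nt or more (BLAST+ 2.17.0). Of the 10 genes, only YAP1 had one, and none overlaps another listed gene on either strand. CRIM1, MERTK, STRN3, TEAD2, VGLL4, KRT8, KRT18, CD68 and PTPRC overlap a listed gene on the opposite strand, so their values are uncertain where strand was not used. MOB4 overlaps listed genes on both strands and has a near-identical copy, and AJUBA, TF and CD68 overlap one on the same strand. The steps were tested on simulated data. Python 3.11.15, pandas 2.3.3, numpy 2.4.6, scipy 1.17.1 and matplotlib 3.10.9 were used.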

Additional observations from a re-analysis of the deposited data

How the results depend on the processing

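Other pseudocounts (0.1 and 5 CPM), a mean of at least 10 CPM or no filter, a rescaling to a median log2 ratio of 0, a fold threshold of 2 and, chosen after seeing the data, a scaling to the sum of the listed genes were tried. Of 40 log2 ratios of the 10 genes under the other pseudocounts and scalings, 40 moved by less than the counting error of the gene (a filter cannot change a gene's own ratio). These settings recompute the same tags, so this gives the size of the shifts and says nothing of how well the ratios would repeat. TEAD1 (0.01) and LATS2 (0.05) changed sign under the rescaling. The intervals of YAP1 and AXL lay above 0 after the rescaling (6 of the 10 genes, against 4), a comparison also chosen after seeing the data. Of 30 list medians, 23 kept their sign and stayed within 1.5 times. After the rescaling, the Hippo list was at 0.011, STRIPAK at 0.13 and TEAD and VGLL at 0.058, and the last was 0.0010 with the scaling to listed genes. The target list was at -0.14 with a mean of at least 10 CPM, -0.12 with no filter and -0.14 with a pseudocount of 5 CPM. LATS1 was at least 1.5-fold higher except with a pseudocount of 5 CPM, where 0 of the 10 genes and 0 of the Hippo list were, and 0 of the 10 were 2-fold higher. Of 13 hepatocyte and hepatoma markers, 2 were at least 1.5-fold lower, against 1 with a pseudocount of 5 CPM. After the rescaling or with a fold threshold of 2, 0 were. With a mean of at least 10 CPM, 8 markers were left, of which 1 was at least 1.5-fold lower. Over all genes, 219 were at least 1.5-fold higher and 555 lower. With a fold threshold of 2 they were 33 and 59, with a mean of at least 10 CPM 135 and 223, with a pseudocount of 0.1 CPM 336 and 856, and with a pseudocount of 5 CPM 91 and 164. These follow from the stricter or looser rules themselves. Scaling by TMM factors and the exact tests of the tag numbers were not run. Leaving out a library would leave nothing to compare. No paired analysis was possible because there was 1 library per condition. The 10 genes had 298 to 2055 tags in a library, which sets the width of their intervals.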
